A study of Mus musculus with 162 samples.

Results

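The keratin genes of the epidermis between hair follicles were followed in mouse skin treated with MC903 (calcipotriol), a vitamin D analog that is painted on skin to model atopic dermatitis. The 10 genes, of 46078 genes listed in the count files, were taken by symbol and fall into 3 classes: the basal keratins Krt5 and Krt14, the suprabasal keratins Krt1, Krt10, Krt2 and Krt77, and the stress keratins Krt6a, Krt6b, Krt16 and Krt17. The rule for taking them used no measured value, but the set was proposed with earlier results of these data known. Of the 162 libraries of the series, 61 of skin were used here, 31 from mice given MC903 and 30 from mice given the ethanol vehicle. Mice were adult male C57BL/6, and 20 µL of 0.2 mM MC903 in ethanol, or of ethanol alone, was put on the shaved cheek daily. Wild-type mice without injection were sampled 6 h after the first application (day 1, 4 MC903 and 4 ethanol libraries), on day 2 (3 and 2), on day 5 (3 and 3) and on day 8 (5 and 6). Wild-type mice of day 8 were also injected with PBS (2 and 3) or with 250 µg of aGr1 (4 and 4), an antibody that depletes neutrophils. These injections were given daily, from the day before the first application. Mice labelled TSLPR.KO lack the receptor for the cytokine TSLP throughout the body and were sampled without injection on day 8 (3 and 2) and day 12 (4 and 3). Mice labelled BLT1.KO, named for a receptor of leukotriene B4, were sampled without injection on day 8 (3 and 3). The question of each comparison was what MC903 did against ethanol in mice of the same genotype, injection and day.

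Keratins are the intermediate filament proteins of epithelial cells, and each filament is built from pairs of a type I and a type II keratin. In resting epidermis, cells of the basal layer make the pair Krt5 (type II) and Krt14 (type I), and cells that leave that layer switch to Krt1 (type II) and Krt10 (type I), with Krt2 in the outer layers of some skin sites and Krt77 as a further type II suprabasal keratin. Krt6a and Krt6b (type II) and Krt16 and Krt17 (type I) are mainly made in hair follicles and other appendages of resting skin and appear between follicles after wounding and in inflamed or overgrowing epidermis.

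The type I members lie on mouse chromosome 11 and the type II members on chromosome 15, all on the minus strand (GRCm38), and within each type some members are nearly the same in sequence. The first 60 coding bases of the pairs that are most alike are shown, since they set how well the counts of these genes can be told apart. Capitals mark the bases that differ within a pair.
Krt6a (chr15:101694189-101694248): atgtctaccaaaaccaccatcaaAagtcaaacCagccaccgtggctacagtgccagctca
Krt6b (chr15:101680164-101680223): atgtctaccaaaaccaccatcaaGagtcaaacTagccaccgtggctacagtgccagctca
Krt14 (chr11:100207396-100207455): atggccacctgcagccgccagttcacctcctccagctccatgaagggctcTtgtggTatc
Krt16 (chr11:100248831-100248890): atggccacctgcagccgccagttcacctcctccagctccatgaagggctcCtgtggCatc

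The coding sequences of Krt6a and Krt6b were 97.6% identical, those of Krt14 and Krt16 82.9%, and those of Krt16 and Krt17 68.9%. The reads were 50 bases long. Of all 50-base windows of the transcript, 62% of Krt6a and 50.1% of Krt6b also occurred in another transcript, and 44.5% of those of Krt6b occurred in Krt6a. For Krt16 the share was 37.6%, of which the unclassified gene Gm11597 held the most, and it was 14.4% for Krt14, 12.2% for Krt5, 3.99% for Krt17, 2.44% for Krt10 and 0 for Krt1, Krt2 and Krt77. How reads with several matches were counted is not given in the sources used here, so the levels of Krt6a and Krt6b are best read together, and those of Krt16 with this limit. The gene models Gm5478 and Gm11597, which share windows with Krt6a and Krt16, held a median of 7.81% of the count of Krt6a and 5.30% of that of Krt16 in ethanol libraries, and 3.89% and 14.2% in MC903 libraries.

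The promoters of Krt10 and Krt77 are shown because these genes fell together in MC903-treated skin, as described below. The 120 bases before the start, from RefSeq (GRCm38.p6), are given on the minus strand, with a TATAAA match of Krt10, 26 bases before its start, in capitals.
Krt10 (chr11:99389365-99389484): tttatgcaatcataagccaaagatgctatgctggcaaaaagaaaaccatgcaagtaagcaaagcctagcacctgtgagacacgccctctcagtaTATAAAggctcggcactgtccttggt
Krt77 (chr15:101869706-101869825): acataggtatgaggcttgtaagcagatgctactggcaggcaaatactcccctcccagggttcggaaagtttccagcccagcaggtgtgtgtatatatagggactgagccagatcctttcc
RefSeq promoters matched 5 of the 10 members (Krt5, Krt14, Krt10, Krt2 and Krt77). The 250 bases before the start were searched on both strands. The TATA box string TATAAA was found in Krt10 alone and the CCAAT box CCAAT in Krt10 and Krt2. The AP-1 site TGANTCA and the nuclear receptor half-site AGGTCA were found in none of the 5. Other forms of these motifs, such as variant TATA boxes, were not searched. The sequence matched to Krt14 (chr11:100206031-100206280) lies inside that gene, past its first coding base. The bases before the coding start of Krt14 were therefore not searched. Of 32851 promoters, 12.4% held TATAAA, 33.8% CCAAT, 6.75% TGANTCA and 14% AGGTCA.

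Counts on genes ranged from 17431296 to 67342879 per skin library (median 28927563), so that every member but Krt2 had at least 102 counts in each library. Krt2 had 3 counts or fewer in 7 libraries, all of them from MC903-treated skin. The skin label was checked against the basal keratins: before scaling, the median level of Krt5 was 2031 cpm (counts scaled to the depth of the library) in skin and 0.0362 cpm in spinal cord. Crlf2, the gene removed in TSLPR.KO, was at 0.0590 to 1.54 cpm in the 12 TSLPR.KO skin libraries and at 2.07 to 14.9 cpm in the other 49. Ltb4r1, which encodes BLT1, was at 2.29 to 3.62 cpm with ethanol and 10.1 to 15.6 cpm with MC903 in BLT1.KO skin, below the 6.59 to 9.66 and 31.7 to 78.2 cpm of uninjected wild-type skin on day 8. Over all 55 other skin libraries, however, it ran from 2.29 to 78.2 cpm. With ethanol, aGr1-injected wild-type skin held 3.40 to 6.16 cpm. The level of Ltb4r1 thus did not set the BLT1.KO libraries apart from all others. MC903 replicate 3 of day 2 stood apart, with a summed level of sensory neuron markers of 992 cpm against 13.1 to 16.8 cpm in the ethanol libraries of that day. The 9 wild-type skin libraries of day 12 were left out by the rule that set the groups, and 6 of them lacked the keratins. Titles of the day 8 wild-type libraries without injection are written in 2 styles, which were fitted as 2 cohorts, A (3 MC903 and 3 ethanol) and B (2 and 3). Labels number the replicates but do not say more of their origin, so p-values measure the spread between these samples.

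In the text, levels are cpm after TMM scaling over the 61 libraries, and changes are log2 fold changes of MC903 over ethanol ± SE from edgeR's quasi-likelihood test of each comparison. The adjusted p is that test's Benjamini-Hochberg value over all genes tested, and a gene was called changed when it was under 0.05. The plot of the 10 keratins by library gives the level of every member in each of the 61 libraries.

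**Figure D1:**
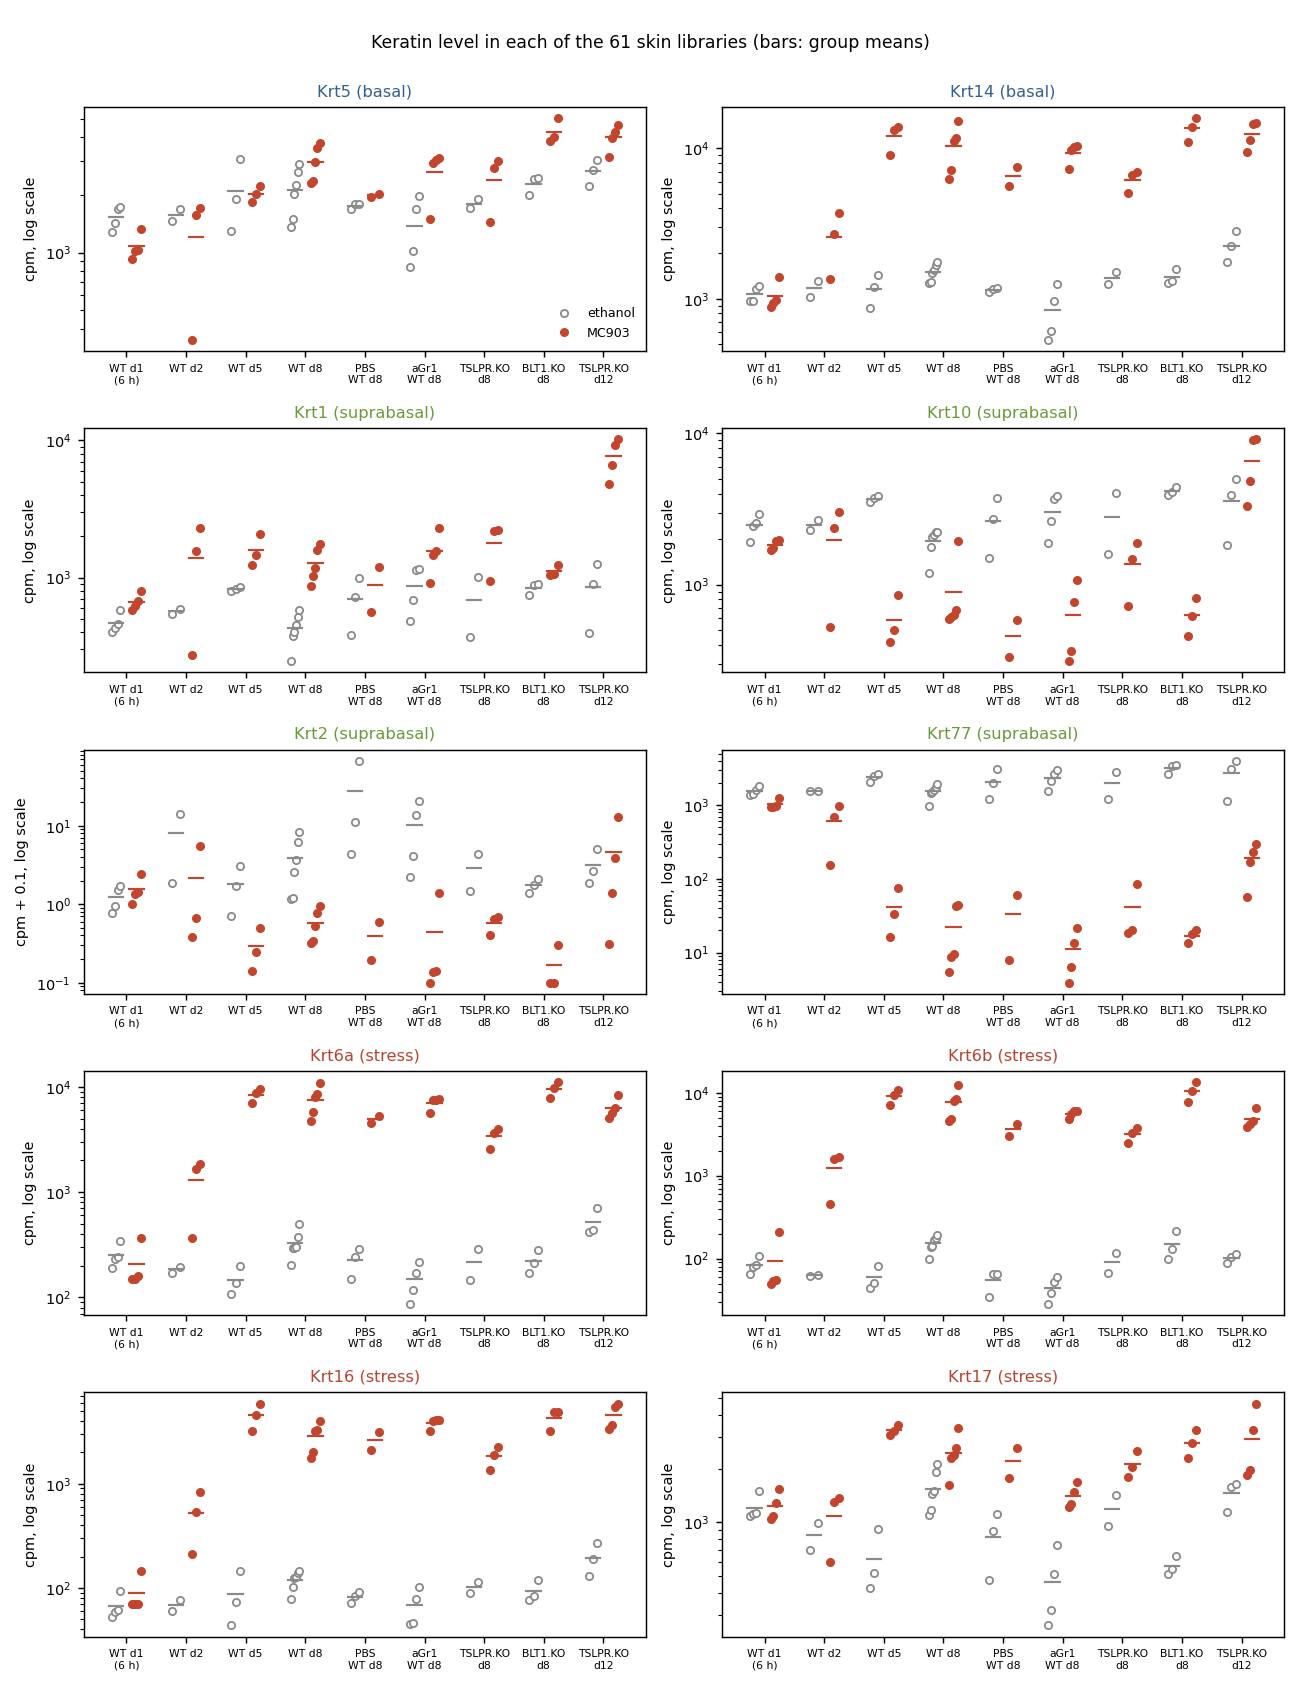
Level of each of the 10 keratins in cpm (log axis; 0.1 was added for Krt2) in every skin library, by comparison, with ethanol and MC903 libraries in separate colors and bars at the group means. From day 5 on, Krt6a, Krt6b, Krt16 and Krt14 lie higher in every MC903 library than in any ethanol library of the same comparison, and Krt77 lies lower.

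In ethanol-treated skin Krt10, Krt5, Krt14, Krt77 and Krt17 were abundant, and Krt1, Krt6a, Krt16, Krt6b and Krt2 were at lower levels. Levels of different genes were compared only per kilobase of exon. Over the 30 ethanol libraries, Krt10 had the highest mean, at 1362 ± 479 cpm per kilobase (SD, n = 30). Krt5 followed at 872 ± 260.4, Krt14 at 752 ± 250.2, Krt77 at 719 ± 274 and Krt17 at 652 ± 308 cpm per kilobase. The means of these last 4 genes lay within 1 SD of one another, so their order was not resolved. The order varied by group: in uninjected wild-type skin of day 8 Krt17 (993 ± 262), Krt5 (960.4 ± 277) and Krt10 (918 ± 191 cpm per kilobase) lay within 1 SD of one another. Over all ethanol libraries, lower levels were found for Krt1, at 151 ± 61.6, Krt6a, at 106.2 ± 53.97, Krt16, at 63.1 ± 30.1, and Krt6b, at 42.3 ± 21.6 cpm per kilobase, and each of these neighbors in the order overlapped the next. Krt2 was the lowest, at 2.42 ± 4.73 cpm per kilobase, with a range of 0.231 to 25.6. The value of Krt1 depends on its exon length, which is 4.415 kb over all annotated transcripts but 2.455 kb in its main transcript. Against the type II partner Krt5, the type I partner Krt14 was at a like level in resting skin, whereas the mean of Krt1 was below that of Krt10 with either exon length.

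MC903 moved nearly all of the 10 keratins by day 5, with every stress keratin higher and every suprabasal keratin but Krt1 lower. In uninjected wild-type skin, 6 members rose and 3 fell on day 5, where 8.15% of 24226 genes tested rose and 6.78% fell. On day 8 the counts were again 6 and 3, beside 12.2% and 11.2% of 26175 genes. At 6 h after the first application none rose and only Krt77 fell, when 5.51% of 24749 genes rose and 7.47% fell. On day 2, edgeR called 0.0% of 24580 genes in either direction. An unadjusted p under 0.05 was found for 1191 genes, about the share that this threshold gives by chance. DESeq2 called 1.14% of 24386 genes on that day and 3 members.

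Members were also called in injected and knockout mice. With PBS, 4 members rose and 2 fell, beside 3.26% and 0.721% of all 24416 genes tested. With aGr1, 5 rose and 3 fell, beside 15.1% and 17.5% of 25287 genes. TSLPR.KO skin had 4 rises and 2 falls beside 1.3% and 1.14% of 24292 genes on day 8, and 5 rises and 1 fall beside 5.41% and 4.62% of 25432 genes on day 12. BLT1.KO skin had 6 rises and 3 falls, beside 14.1% and 14.6% of 25771 genes. Krt6a, Krt6b, Krt16 and Krt14 were called higher in all 7 comparisons from day 5 on, and Krt77 lower in the same 7. Krt6a with PBS lost its call without ethanol replicate 1 (adjusted p = 0.0510; 5.75e-34 to 0.0510 over all alternatives). In bulk skin, fewer cells of a type and less RNA per cell cannot be told apart.

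**Figure D2:**
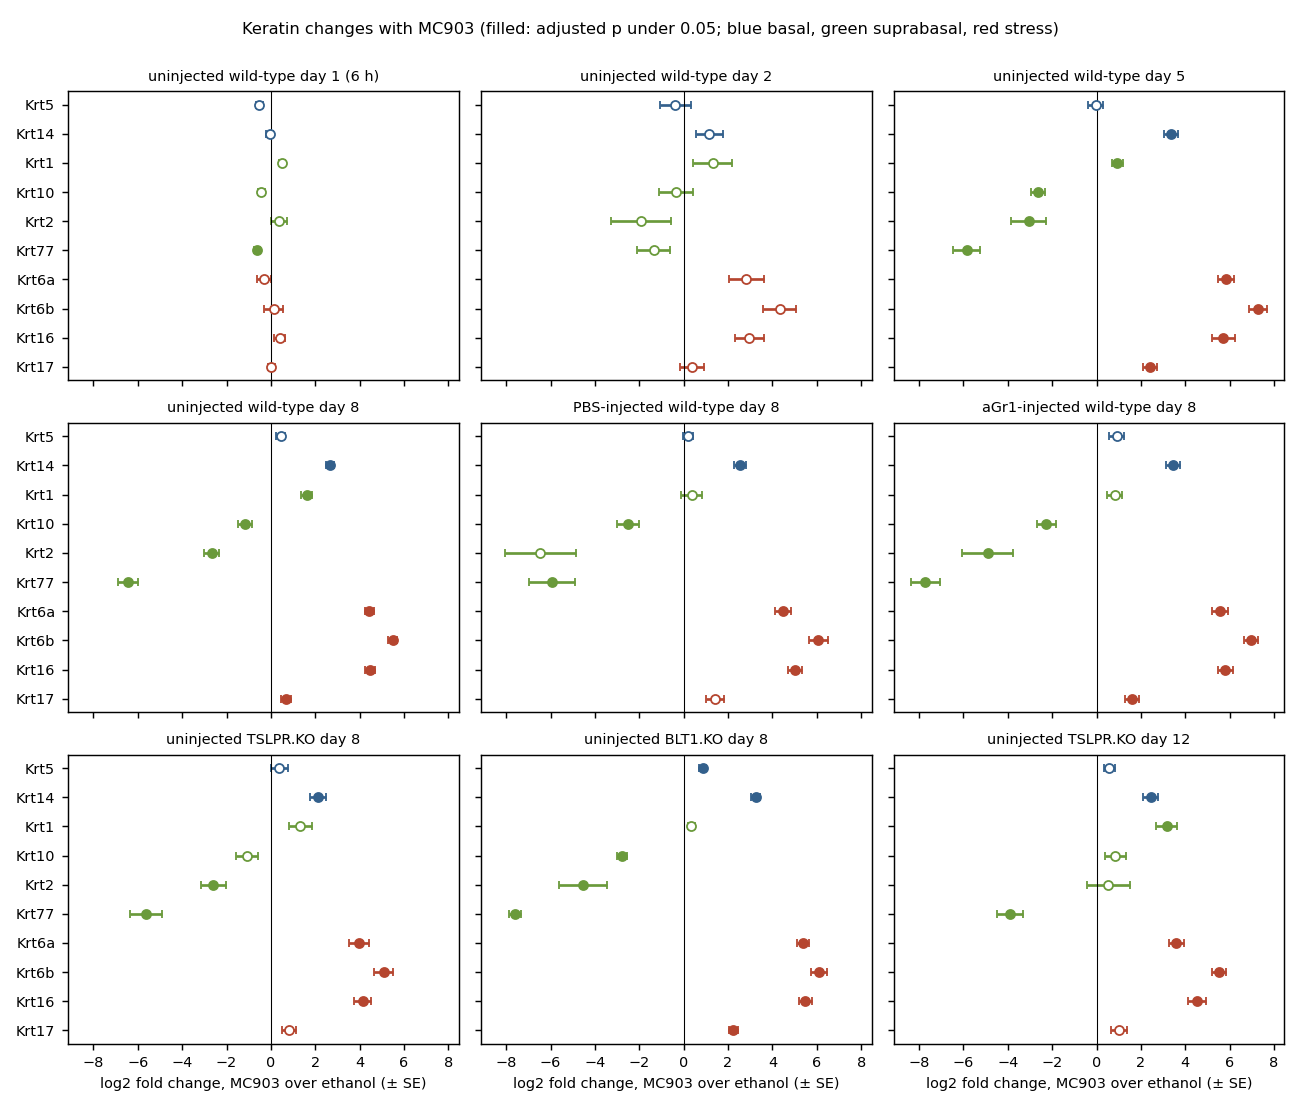
Log2 fold change of MC903 over ethanol with its SE for each keratin (rows) in the 9 comparisons (panels), with filled points where the adjusted p is under 0.05. Stress keratins and Krt14 lie to the right of 0 and Krt77 to the left in every panel from day 5 on, while Krt1 and Krt10 move with the group.

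Krt6b, the type II partner made beside Krt6a in stressed epidermis, showed the largest rise of the 10. On day 5 the 3 ethanol libraries held 44.7, 51.2 and 81.7 cpm and the 3 MC903 libraries 7041, 9334 and 10862 cpm. On day 8 the ethanol libraries held 99.02 (lowest), 155 (median) and 194 (highest) cpm, and the MC903 libraries 4616, 4760.2, 7989, 8370.1 and 12487 cpm. Every MC903 library was above every ethanol library on both days. Krt6b rose 154-fold on day 5 (log2 7.27 ± 0.40, adjusted p = 7.19e-05) and 45.1-fold on day 8 (log2 5.50 ± 0.21, adjusted p = 4.77e-09). Its rise in the other groups was 67.2-fold with PBS, 123.6-fold with aGr1, 68.6-fold in BLT1.KO, and 33.9-fold on day 8 and 46.2-fold on day 12 in TSLPR.KO. Each of these 5 rises passed the test, with adjusted p from 3.94e-06 to 0.00176.

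Krt6a, its near-identical neighbor on chromosome 15, moved with Krt6b from a higher resting level. On day 5 the ethanol libraries held 106.9, 136 and 198 cpm and the MC903 libraries 6997, 8800.4 and 9569 cpm. By day 8 they were 204 (lowest), 298 (median) and 492 (highest) cpm with ethanol and 4686, 5725, 8069, 8585 and 10824 cpm with MC903. Groups did not overlap on either day. The rise was 57.8-fold on day 5 (log2 5.85 ± 0.36, adjusted p = 1.0012e-04) and 21.6-fold on day 8 (log2 4.43 ± 0.20, adjusted p = 2.03e-08). Across the 61 libraries the log2 levels of Krt6a and Krt6b correlated at r = 0.99, a description that includes the reads they may share.

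Krt16, the type I partner of Krt6, rose about as far as Krt6a. Its day 5 levels were 43.6, 73.3 and 144 cpm with ethanol and 3182, 4587 and 5809 cpm with MC903. On day 8 they were 77.8, 102.3, 123.7, 126.3, 139 and 144 cpm with ethanol and 1768, 2034, 3202, 3260.0 and 3963 cpm with MC903. The lowest MC903 library was far above the highest ethanol library on both days. Krt16 rose 52.5-fold on day 5 (log2 5.71 ± 0.53, adjusted p = 6.15e-04) and 22.2-fold on day 8 (log2 4.47 ± 0.20, adjusted p = 2.03e-08). The correlation with Krt6a over the 61 libraries was r = 0.99.

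Krt17, a keratin of the hair follicle as well as of stressed epidermis, had a high and variable level without MC903, and its rise was the smallest of the class. On day 5 it was at 429.7, 518 and 915 cpm with ethanol and 3103, 3258 and 3529.8 cpm with MC903, a 5.35-fold rise (log2 2.42 ± 0.31, adjusted p = 0.00277). By day 8 the ethanol libraries held 1092 (lowest), 1469 (median) and 2130.5 (highest) cpm and the MC903 libraries 1613, 2304, 2374, 2610.0 and 3396 cpm. The groups were apart on day 5 and overlapped on day 8. The day 8 difference was 1.58-fold (log2 0.66 ± 0.22, adjusted p = 0.0477). That call was lost in 11 of 22 alternatives (adjusted p 0.00773 to 0.592), among them cohort A alone (log2 0.24), the fit of all skin libraries together and the omission of any of 8 libraries. Cohort B alone gave log2 1.15 (adjusted p = 0.00773). Hair shaft genes (hair keratins and their regulators, 11 measured) moved with the group: their summed level was 6014 to 26571 cpm in the day 8 ethanol libraries and 275 to 7258 cpm in the MC903 libraries, against 130.8 to 2432 and 101.1 to 5683 cpm on day 5. Their part in the level of Krt17 was not tested. Krt17 rose 3.03-fold with aGr1 (adjusted p = 0.00479), and log2 values of 1.42 with PBS and of 0.81 and 0.99 in TSLPR.KO on days 8 and 12 did not pass the test.

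Early in the course, stress keratins were not separated by the test. At 6 h, Krt6a had log2 -0.31 ± 0.30, Krt6b 0.12 ± 0.44, Krt16 0.39 ± 0.26 and Krt17 0.01 ± 0.17, all with adjusted p of 0.347 or more. MC903 replicate 2 of that day was the highest library for Krt6a, Krt6b and Krt16, at 364, 211 and 145 cpm. Without it, Krt6b was lower with MC903 (log2 -0.66, adjusted p = 0.0457; 0.0457 to 0.981 over all alternatives). On day 2 the MC903 libraries held 457, 1592 and 1691 cpm of Krt6b against 61.1 and 63.9 cpm with ethanol. For Krt6a the values were 366, 1667 and 1864 cpm against 172 and 196 cpm, and for Krt16 212, 531 and 839 cpm against 59.6 and 76.95 cpm. For these 3 genes each MC903 library of day 2 was above both ethanol libraries. The test gave log2 4.33 ± 0.75 for Krt6b (adjusted p = 0.327), 2.83 ± 0.79 for Krt6a (adjusted p = 0.798) and 2.96 ± 0.67 for Krt16 (adjusted p = 0.558). Without MC903 replicate 3, the library with sensory neuron markers, 0.257% of 23361 genes were called, among them Krt6b (log2 4.72, adjusted p = 0.0114), Krt6a (3.27, adjusted p = 0.0363) and Krt16 (3.34, adjusted p = 0.0474). With 1 fit over all skin libraries 5.49% of 30743 genes and 4 members were called on day 2, and with replicate numbers as a block 3.56% of 24580 genes and 5 members. Over all alternatives the adjusted p of Krt6b on day 2 ran from 1.95e-18 to 0.99999.

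Of the basal pair, Krt14 rose in every comparison from day 5 on. This type I partner was at 868, 1205 and 1433 cpm with ethanol and at 8997, 13290.0 and 13854 cpm with MC903 on day 5. On day 8 it was at 1275 (lowest), 1516 (median) and 1752 (highest) cpm with ethanol and at 6284, 7188, 11138, 11765 and 15065 cpm with MC903. No MC903 library of either day came near the ethanol range. Krt14 rose 10.3-fold on day 5 (log2 3.37 ± 0.33, adjusted p = 7.9971e-04) and 6.32-fold on day 8 (log2 2.66 ± 0.19, adjusted p = 9.60e-07). The rise was 5.74-fold with PBS, 10.9-fold with aGr1, 9.43-fold in BLT1.KO and 5.42-fold in TSLPR.KO on day 12, all past the test. With PBS the call was lost without MC903 replicate 1 or ethanol replicate 1 and with the replicate block (3.23e-21 to 0.0977 over all alternatives). In TSLPR.KO on day 8 it was 4.39-fold (adjusted p = 0.0156), a call lost when either ethanol library or MC903 replicate 2 or 3 was left out (3.77e-14 to 0.0707 over all alternatives).

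Krt5, the type II partner, passed the test in 1 of the 7 comparisons in which Krt14 did, that of BLT1.KO. On day 5 the ethanol libraries held 1290.3, 1916 and 3093 cpm and the MC903 libraries 1832, 2020.0 and 2217 cpm, and the MC903 libraries lay inside the ethanol range. On day 8 the levels were 1367 (lowest), 2133 (median) and 2889 (highest) cpm with ethanol and 2319, 2351, 2968, 3524 and 3723 cpm with MC903, and the groups overlapped. Krt5 did not pass the test on day 5 (log2 -0.04 ± 0.32, 95% interval -0.78 to 0.69, adjusted p = 0.942) or day 8 (log2 0.44 ± 0.21, 95% interval -0.02 to 0.90, adjusted p = 0.159). On both days the interval ended below the estimated rise of Krt14. In BLT1.KO skin Krt5 was at 2000.1, 2412 and 2438 cpm with ethanol and 3804, 4010.1 and 5036 cpm with MC903, without overlap. It rose 1.81-fold there (log2 0.85 ± 0.17, adjusted p = 0.00651), and that call was lost in 1 of 14 alternatives, the fit of all skin libraries together (adjusted p = 0.0555; 1.91e-06 to 0.0555 over all). In TSLPR.KO on day 12 Krt5 was at 2234, 2712 and 3030.4 cpm with ethanol and 3145, 3958, 4245 and 4649 cpm with MC903. These did not overlap, but the log2 value of 0.56 ± 0.25 did not pass the test (adjusted p = 0.188). With aGr1 the value was log2 0.91 ± 0.33 (adjusted p = 0.0622), which 5 of 16 alternatives put past the threshold (0.0120 to 0.147). Over the 61 libraries Krt5 and Krt14 correlated at r = 0.69, below the r = 0.99 of Krt14 with Krt16, whose transcripts share windows.

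Among suprabasal keratins, Krt77 was called lower in 8 of the 9 comparisons, and in each of these its fall was the largest of those called in the class. With PBS the fitted value of Krt2 was lower still (log2 -6.46 ± 1.58), but it did not pass the test (adjusted p = 0.0863). On day 5 the ethanol libraries held 2076, 2465 and 2615 cpm and the MC903 libraries 16.2, 33.2 and 74.1 cpm. On day 8 the levels were 974 (lowest), 1549.9 (median) and 1911 (highest) cpm with ethanol and 5.44, 8.64, 9.66, 42.8 and 43.7 cpm with MC903. The highest MC903 library was thus far below the lowest ethanol library on both days. Krt77 was 58.1-fold lower on day 5 (log2 -5.86 ± 0.59, adjusted p = 9.99e-04) and 87.1-fold lower on day 8 (log2 -6.44 ± 0.45, adjusted p = 7.04e-07). The fall was 209.8-fold with aGr1, 195-fold in BLT1.KO, 60.98-fold with PBS and 49.5-fold in TSLPR.KO on day 8, all past the test. With PBS this call was lost without MC903 replicate 1 or ethanol replicate 1 or 3 (4.12e-14 to 0.160 over all alternatives), and in TSLPR.KO on day 8 without MC903 replicate 1 (adjusted p = 0.0657; 1.68e-10 to 0.0657 over all).

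It was also the only member called at 6 h, when it was at 1354, 1428, 1625 and 1826 cpm with ethanol and 938, 949.6, 978 and 1235 cpm with MC903. The groups did not overlap, and the level was 1.54-fold lower with MC903 (log2 -0.62 ± 0.15, adjusted p = 0.0265). That call was lost in 8 of 16 alternatives (adjusted p 1.10e-04 to 0.631), including the omission of MC903 replicate 1, 2 or 3 or ethanol replicate 2 or 3. On day 2 the levels of Krt77 were 1538 and 1579 cpm with ethanol and 153, 700.1 and 966 cpm with MC903, without overlap and with an adjusted p of 0.898.

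Krt10, the main type I suprabasal keratin, fell by less than Krt77. On day 5 its levels were 3511, 3740.3 and 3860.1 cpm with ethanol and 417, 498 and 849.7 cpm with MC903, a 6.30-fold fall (log2 -2.66 ± 0.32, adjusted p = 0.00199). On day 8 the ethanol libraries held 1198 (lowest), 2109 (median) and 2241 (highest) cpm and the MC903 libraries 595, 609, 632, 678 and 1956 cpm. On that day 4 of the 5 MC903 libraries were below every ethanol library, and the fifth, 1 of 2 of cohort A numbered replicate 1, was within the ethanol range. The day 8 level was 2.25-fold lower (log2 -1.17 ± 0.33, adjusted p = 0.0221). This call was lost in 3 of 22 alternatives (adjusted p 9.99e-05 to 0.339), namely in cohort A alone (log2 -0.69, adjusted p = 0.339) and without MC903 replicate 1 or 2 of cohort B (log2 -1.02 and -1.03). Cohort B alone gave log2 -1.82 (adjusted p = 2.77e-04).

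Elsewhere on day 8, Krt10 was 6.83-fold lower in BLT1.KO (adjusted p = 6.93e-05), 4.82-fold lower with aGr1 (adjusted p = 0.00420) and 5.69-fold lower with PBS (adjusted p = 0.0488). The PBS call was lost in 8 of 13 alternatives (adjusted p 3.42e-06 to 0.306), including the omission of ethanol replicate 1 or of either MC903 library. In TSLPR.KO on day 8 the levels were 1600.5 and 4016 cpm with ethanol and 718, 1485 and 1889.7 cpm with MC903. These overlapped, and the log2 value of -1.08 ± 0.49 did not pass the test (95% interval -2.18 to 0.02, adjusted p = 0.344).

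Krt1, the type II partner of Krt10, went the other way. On day 5 it was at 796, 826 and 859.6 cpm with ethanol and 1244, 1459 and 2061 cpm with MC903, without overlap. It rose 1.92-fold (log2 0.94 ± 0.24, adjusted p = 0.0359), a call lost in 6 of 14 alternatives (adjusted p 6.13e-04 to 0.165), including the omission of ethanol replicate 1 or 2 or MC903 replicate 1 or 2. By day 8 the levels were 245 (lowest), 425 (median) and 579 (highest) cpm with ethanol and 869, 1029, 1164, 1577 and 1769 cpm with MC903. Every MC903 library was above every ethanol library. Krt1 rose 3.04-fold on day 8 (log2 1.61 ± 0.24, adjusted p = 4.34e-04), and by log2 1.95 in cohort A and 1.13 in cohort B alone. In the injected groups, TSLPR.KO and BLT1.KO of day 8 the log2 values ran from 0.34 in BLT1.KO to 1.33 in TSLPR.KO, and none passed the test. Over the 61 libraries Krt1 and Krt10 correlated at r = 0.20, whereas Krt10 and Krt77 correlated at r = 0.75.

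Krt2, a keratin of the outermost living layers, was scarce throughout. On day 8 it was at 1.07 (lowest), 3.02 (median) and 8.18 (highest) cpm with ethanol and at 0.216, 0.239, 0.422, 0.679 and 0.858 cpm with MC903. It was 6.36-fold lower (log2 -2.67 ± 0.34, adjusted p = 1.26e-04), and no MC903 library reached the ethanol range. On day 5 the levels of 0.604, 1.60 and 2.94 cpm with ethanol and 0.0400, 0.146 and 0.403 cpm with MC903 gave log2 -3.06 ± 0.80 (adjusted p = 0.0382), a call lost in 5 of 14 alternatives (adjusted p 9.51e-04 to 0.123), including the omission of any of 4 libraries (ethanol replicates 2 and 3, MC903 replicates 1 and 2). Krt2 was also called lower with aGr1 (adjusted p = 0.0109), in BLT1.KO (adjusted p = 0.0141) and in TSLPR.KO on day 8 (adjusted p = 0.0449). In the aGr1 and BLT1.KO groups some MC903 libraries held no count of Krt2, so the fitted folds depend on the prior count and are not given. The TSLPR.KO call was lost in 6 of 13 alternatives (adjusted p 6.56e-04 to 0.424), including the omission of any MC903 library or of ethanol replicate 1.

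Set against one another, the 3 classes crossed over in treated skin. In each library the cpm of the 4 stress keratins were summed and divided by the sum of the 4 suprabasal keratins. On day 5 the log2 of this ratio was -2.99 ± 0.65 (SD) with ethanol and 3.54 ± 0.24 with MC903. On day 8 it was -0.88 ± 0.65 with ethanol, with libraries from -1.44 to 0.29, and 3.25 ± 0.40 with MC903, with libraries from 2.94 to 3.94. With levels taken per kilobase of exon, this log2 ratio on day 8 ran from -0.85 to 0.88 with ethanol, below 0 in 4 of 6 libraries, and from 3.41 to 4.50 with MC903. The mean log2 ratio was higher with MC903 by 0.33 at 6 h, 2.27 on day 2, 6.53 on day 5 and 4.13 on day 8. The shift was 5.52 with PBS, 6.27 with aGr1, 6.94 in BLT1.KO, and 3.49 on day 8 and 1.96 on day 12 in TSLPR.KO. Shifts also carry the ethanol means, which ran from -3.16 with aGr1 to -0.88 in uninjected wild-type skin of day 8. Krt17 held most of the stress sum with ethanol, with means of 1540 of 2140 cpm on day 8 and 621 of 914 cpm on day 5. Its part in the differences between shifts was not tested. Ethanol and MC903 libraries overlapped in this ratio only at 6 h.

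The ratio of suprabasal to basal keratins moved the opposite way. Its log2 difference between MC903 and ethanol was -0.04 at 6 h, -0.93 on day 2, -3.83 on day 5 and -2.72 on day 8. It was -3.50 with PBS, -4.04 with aGr1, -4.50 in BLT1.KO, and -2.16 on day 8 and -0.68 on day 12 in TSLPR.KO. Libraries overlapped at 6 h and in TSLPR.KO on day 12. The rise of the basal sum was mostly that of Krt14. Its means were 1169 cpm with ethanol and 12047 cpm with MC903 on day 5, where those of Krt5 were 2100 and 2023 cpm. On day 8 the means were 1505 and 10288 cpm for Krt14 and 2110 and 2977 cpm for Krt5. At day 8 the stress and suprabasal contrasts were 3.86 and -2.66 in cohort A alone and 4.34 and -2.71 in cohort B alone.

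**Figure D3:**
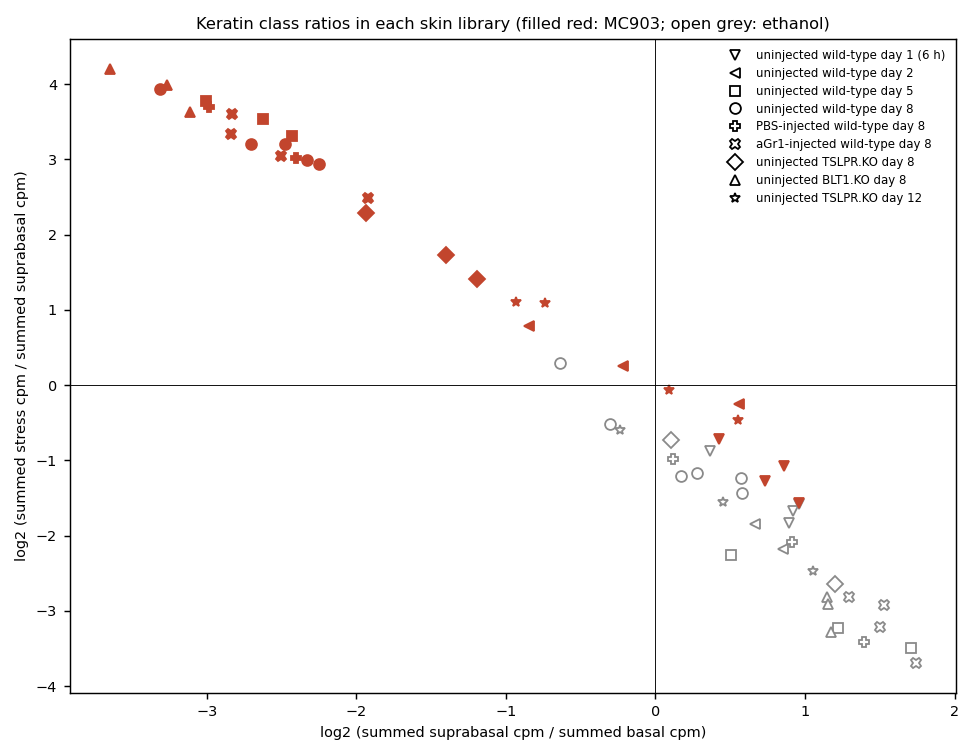
Log2 ratio of summed stress to summed suprabasal keratin cpm (vertical axis) against the log2 ratio of summed suprabasal to summed basal keratin cpm (horizontal axis), with 1 point per skin library, open for ethanol and filled for MC903, and a symbol for each comparison. Ethanol libraries and MC903 libraries of 6 h lie mostly at the lower right, MC903 libraries of days 5 and 8 at the upper left, and the MC903 libraries of TSLPR.KO on day 12 in between.

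The sums of each class were set side by side. The stress keratins of day 8 summed to 1473 to 2956 cpm with ethanol and 13946 to 29578 cpm with MC903. Basal keratins went from 2668 to 4562 to 8635 to 18788 cpm, whereas suprabasal keratins ranged over 2418 to 4659 and 1473 to 3731 cpm and overlapped, with Krt1 higher and the others lower. In other groups the suprabasal sums did not overlap: they went from 6416 to 7271 to 1758 to 2985 cpm on day 5 and from 7283 to 8859 to 1514 to 2061 cpm in BLT1.KO. With PBS they went from 3087 to 7799.9 to 954 to 1791 cpm and with aGr1 from 3947 to 7937 to 1229.7 to 3374 cpm. On day 8 the summed cpm of the 10 genes equalled 0.813% to 1.08% of the TMM-scaled library size with ethanol and 2.44% to 5.21% with MC903. Per kilobase, Krt17, Krt5, Krt10 and Krt14 made up 21.4%, 20.7%, 19.8% and 18.5% of the summed keratin level in the ethanol group of day 8. In the MC903 group, Krt14 (32.7%), Krt6b (19.1%) and Krt6a (17.5%) led, and Krt10 (2.36%) and Krt77 (0.0420%) were minor.

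**Figure D4:**
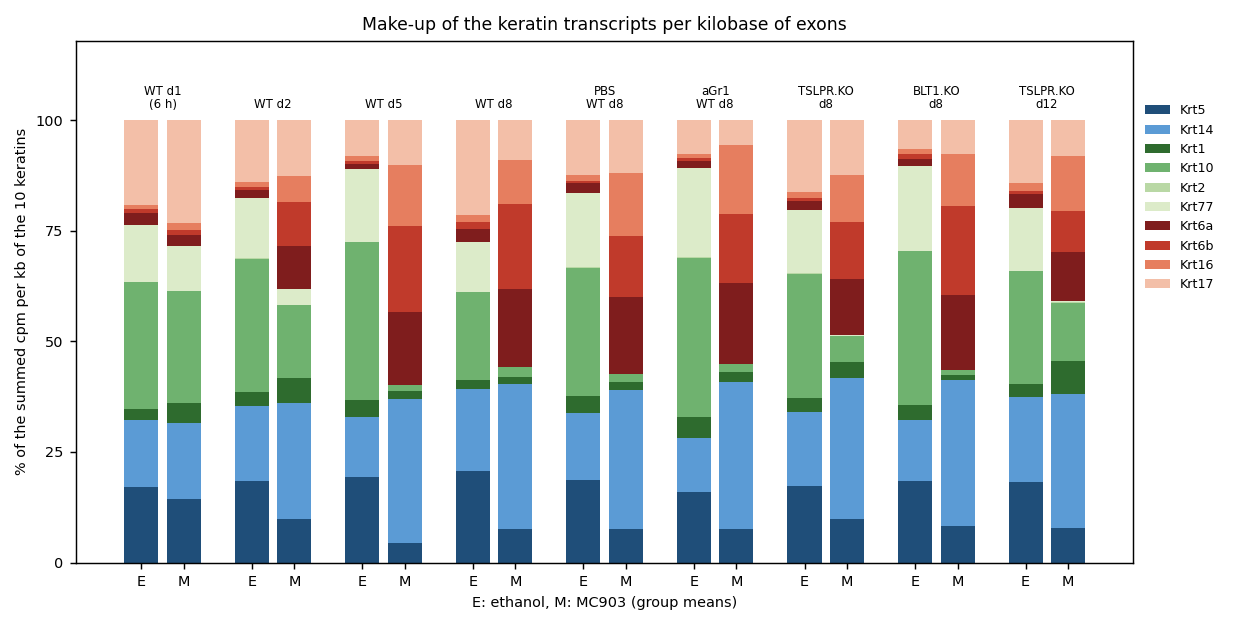
Share of each of the 10 keratins in their summed level per kilobase of exon (percent, stacked bars of group means) for ethanol and MC903 groups of the 9 comparisons. In the day 5 groups Krt10 goes from 35.6% with ethanol to 1.33% with MC903, and Krt14 from 13.5% to 32.6%. Krt1 is taken at 4.415 kb of exon, and its share would be higher with the length of its main transcript.

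Between 6 h and day 5 the effect of MC903 changed for 8 of the 10 members, when 10.8% of 26320 genes differed. The difference of the 2 log2 effects was 7.15 ± 0.70 for Krt6b, 6.16 ± 0.50 for Krt6a, 5.32 ± 0.57 for Krt16, 3.43 ± 0.34 for Krt14 and 2.41 ± 0.34 for Krt17. It was -5.23 ± 0.53 for Krt77, -3.43 ± 0.84 for Krt2 and -2.22 ± 0.32 for Krt10. Krt2 lost this call in 2 of 21 alternatives, 1 of them without MC903 replicate 2 of day 5 (adjusted p = 0.0510; 6.17e-04 to 0.212 over all). Krt5 (0.47 ± 0.35) and Krt1 (0.44 ± 0.27) did not pass the test.

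From day 5 to day 8 the effect was smaller for 3 stress keratins, beside 1.62% of 27187 genes. The difference was -1.75 ± 0.34 for Krt6b (adjusted p = 0.0186), -1.73 ± 0.39 for Krt17 (adjusted p = 0.0377) and -1.40 ± 0.33 for Krt6a (adjusted p = 0.0412). These calls were lost in 3, 9 and 14 of 24 alternatives, mostly by the omission of 1 library of either day, with adjusted p of 1.61e-05 to 0.0564, 7.98e-04 to 0.106 and 7.88e-04 to 0.114. The MC903 levels of the 2 days overlapped for Krt6a, Krt6b and Krt17. Their ethanol levels were lower on day 5, at 147 ± 46.7 against 327 ± 97.8 cpm for Krt6a (SD). They were at 59.2 ± 19.7 against 153 ± 33.7 cpm for Krt6b and at 621 ± 258 against 1540 ± 406 cpm for Krt17.

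Injection with aGr1 went with a larger effect of MC903 on Krt6b and Krt16 than no injection did. Mice with and without injection were set against each other on day 8, where 4.56% of 27824 genes differed in effect. Krt6b differed by log2 1.46 ± 0.30 (adjusted p = 0.0112) and Krt16 by 1.35 ± 0.34 (adjusted p = 0.0288), with larger rises under aGr1. With aGr1 the ethanol libraries held 28.3, 38.4, 52.02 and 60.2 cpm of Krt6b and the MC903 libraries 4827, 5486, 6028 and 6038 cpm, so that the MC903 levels were within the uninjected range and the ethanol levels below it. For Krt16 the levels were 44.6, 46.2, 78.7 and 103.1 cpm with ethanol and 3206, 4026, 4063 and 4098 cpm with MC903. When PBS-injected mice took the place of uninjected ones, the differences were 0.92 for Krt6b (adjusted p = 0.490) and 0.83 for Krt16 (adjusted p = 0.543). In the fit of all skin libraries together neither passed (adjusted p = 0.0516 and 0.0605). The call of Krt16 was also lost when any of 6 libraries was left out (adjusted p 0.00119 to 0.543 over all alternatives).

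In aGr1-injected mice the hair shaft genes summed to 121.5 to 4780 cpm with ethanol and 16.5 to 141 cpm with MC903, below the uninjected range in every ethanol library. Scaling by library totals in place of TMM moved the median log2 value of all genes in this comparison from -0.02 to 0.34. Beside that shift, Krt5 under library totals was at log2 1.24 (adjusted p = 0.0330) and Krt1 at 1.18 (adjusted p = 0.0372), both past the threshold, where all alternatives gave 0.0120 to 0.147 and 0.0327 to 0.212.

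Loss of the TSLP receptor went with no tested difference in the keratin effect on day 8. Of 27120 genes 0.177% differed from wild-type by edgeR's test, and none of the 10 members did. DESeq2 called 548 genes in this contrast. In TSLPR.KO skin Krt6b was at 67.5 and 115.9 cpm with ethanol and 2497, 3269 and 3752 cpm with MC903, without overlap. Its difference in effect from wild-type was log2 -0.39 (95% interval -1.14 to 0.35). The intervals were -1.19 to 0.20 for Krt14, -1.22 to 1.48 for Krt10 and -0.81 to 2.52 for Krt77, around values of -0.50, 0.13 and 0.85. With 3 and 2 libraries in the knockout, differences of more than 2-fold lay within each of these 4 intervals.

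In BLT1.KO skin the effect of MC903 differed from wild-type for 3 members, beside 6.95% of 27679 genes. Krt17 was at 511, 548 and 642 cpm with ethanol and 2294, 2778 and 3295 cpm with MC903, a 4.73-fold rise (adjusted p = 7.62e-05). Its effect exceeded that in wild-type by log2 1.62 ± 0.34 (adjusted p = 0.00789), and it passed in all 25 alternatives. The ethanol libraries of BLT1.KO were lower in Krt17 than any uninjected wild-type ethanol library of day 8, and the MC903 libraries lay within the uninjected wild-type MC903 range. Ethanol libraries of injected wild-type mice reached as low, at 474 to 1112 cpm with PBS and 263 to 745 cpm with aGr1. Hair shaft genes summed to 10.6 to 203 cpm in the BLT1.KO ethanol libraries, against 6014 to 26571 cpm in wild-type, and to 95.6 to 439 cpm with MC903. Their part in the Krt17 difference was not tested.

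For Krt1 the difference between BLT1.KO and wild-type was log2 -1.22 ± 0.35 (adjusted p = 0.0446) and for Krt16 1.06 ± 0.31 (adjusted p = 0.0493). Both were near the threshold and were lost in 14 and 16 of 25 alternatives, including the omission of any BLT1.KO library for Krt1, with adjusted p up to 0.196 and 0.194. The Krt1 levels in BLT1.KO were 749, 888 and 898 cpm with ethanol and 1039, 1068 and 1227 cpm with MC903, so that the ethanol level was above the wild-type one and the MC903 levels overlapped. With cohort B alone as the wild-type, Krt1 gave log2 -0.73 (adjusted p = 0.133) and Krt77 -2.21 (adjusted p = 0.00106). The comparisons of aGr1, TSLPR.KO and BLT1.KO with wild-type all used the same wild-type libraries of day 8.

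**Figure D5:**
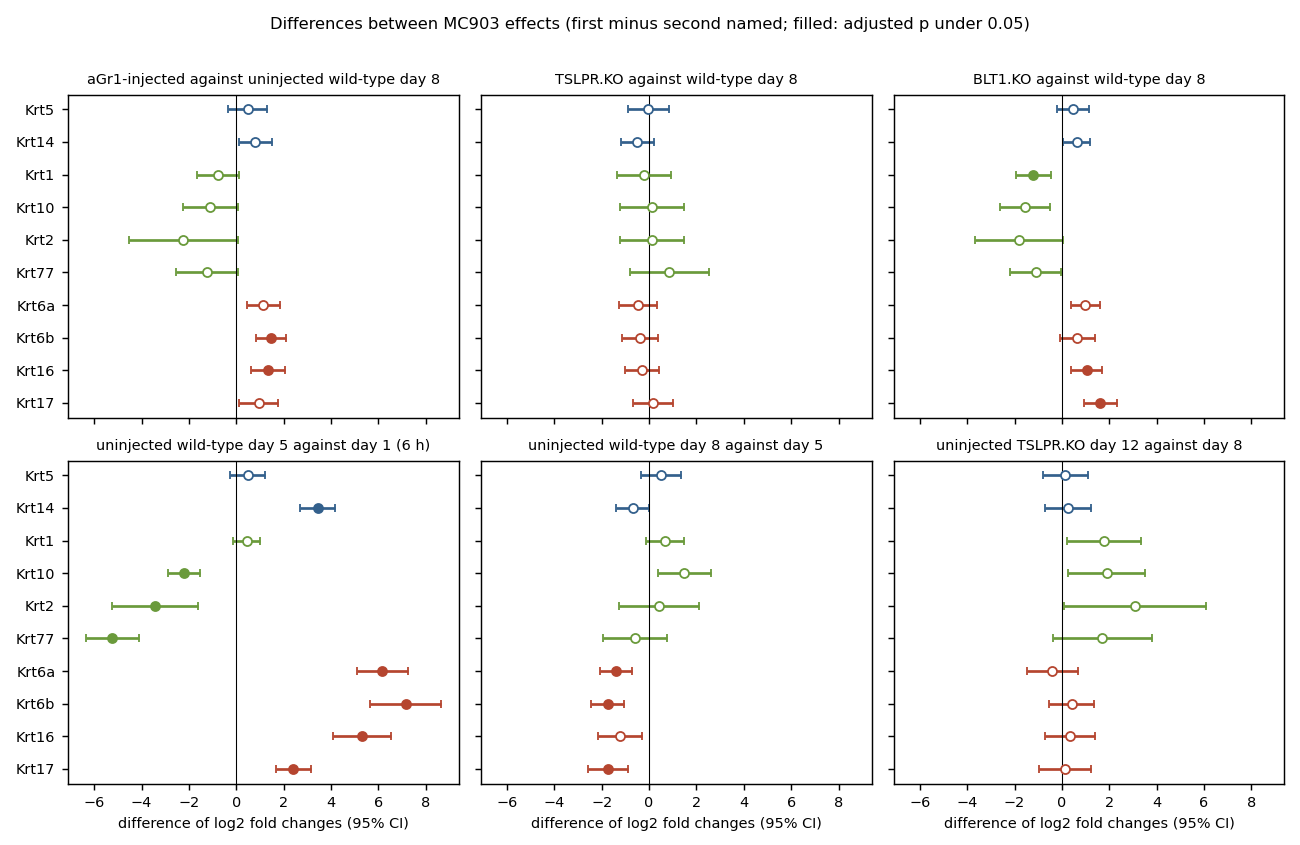
Difference between log2 effects of MC903 with its 95% interval for each keratin in 6 contrasts of days, injections and genotypes. From 6 h to day 5, 8 intervals lie away from 0, with Krt6b at 7.15 and Krt77 at -5.23, whereas the TSLPR.KO intervals against wild-type all include 0.

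In MC903-treated TSLPR.KO skin of day 12 the suprabasal keratins summed to 8149 to 19506 cpm, against 948 to 6285 cpm over the MC903 libraries of the other 8 comparisons. Krt1 was at 392, 900.1 and 1252 cpm with ethanol and at 4786, 6656, 9313 and 10149 cpm with MC903. The lowest treated library held more than 3 times the level of the highest ethanol library. Krt1 rose 8.92-fold (log2 3.16 ± 0.48, adjusted p = 0.00450), which was lost in 1 of 15 alternatives, with the replicate number as a block (adjusted p = 0.0517). Krt10 was at 1827, 3934 and 5025 cpm with ethanol and 3305, 4824, 9066 and 9119.5 cpm with MC903. These overlapped, and the log2 value of 0.84 ± 0.47 did not pass (adjusted p = 0.300).

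Krt77 nevertheless stayed low on day 12. It was at 1153, 3127 and 3988 cpm with ethanol and 57.3, 167, 234 and 300.4 cpm with MC903, a 14.8-fold fall (log2 -3.89 ± 0.59, adjusted p = 0.00447; 0.0855 with the block, the only loss in 15 alternatives). All its treated libraries were below every ethanol library. Krt6b was at 3878, 4221, 4521 and 6527 cpm with MC903 and 88.998, 103.3 and 113.1 cpm with ethanol, a 46.2-fold rise (adjusted p = 6.35e-05). Krt6a rose by log2 3.59 ± 0.34, Krt16 by 4.52 ± 0.39 and Krt14 by 2.44 ± 0.32. The suprabasal sum with ethanol was 3376 to 10267 cpm, and with MC903, per kilobase, Krt10 and Krt1 made up 13.3% and 7.48% of the treated total. The share of Krt1 uses its exon length of 4.415 kb. It would be higher with the 2.455 kb of the main transcript, so the order of these 2 genes was not resolved.

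Set directly against day 8 of the same genotype, the effect of MC903 on day 12 was larger by log2 1.79 ± 0.73 for Krt1 (95% interval 0.22 to 3.36, adjusted p = 0.632) and by 1.89 ± 0.76 for Krt10 (95% interval 0.25 to 3.52, adjusted p = 0.623). This contrast was added after the values were seen. By edgeR's test 0.0% of 26971 genes passed, 2028 had an unadjusted p under 0.05, and DESeq2 called 150 genes but none of the 10. The genotype was the same on both days of this contrast, but the depth was not. Skin libraries held 39664886 to 49646775 counts on day 12 and 27210839 to 34815587 on day 8, and the part of depth was not tested. Day 12 of TSLPR.KO has no wild-type counterpart here, so whether wild-type skin changes alike cannot be told. Against wild-type skin of other days, day and genotype cannot be told apart.

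Other keratin and adhesion genes were read in wild-type skin of day 8 from lists of named genes, where the median log2 value of all 26175 genes was -0.03, and 12.2% of them rose and 11.2% fell. Of 14 other epithelial keratins 1 rose and 6 fell (median log2 -0.19), led by Krt15, a keratin of basal and follicle stem cells, from 946 ± 190.4 to 306 ± 30.4 cpm (SD, adjusted p = 1.65e-05). At 6 h Krt15 was already lower, from 1196 ± 291 to 334 ± 62.7 cpm (adjusted p = 9.36e-04). Keratins of the root sheath and companion layer of the hair follicle fell in 7 of 9 cases (median -1.85), with Krt26 from 877 ± 343 to 217 ± 199.9 cpm. Hair shaft genes fell in 9 of 11 (median -2.23), with Krt35 from 610.3 ± 203 to 166 ± 124.4 cpm and Lef1, a hair follicle transcription factor, from 34.2 ± 8.18 to 10.3 ± 8.06 cpm.

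Genes of the junctions that anchor keratin filaments were mixed. Of 14 desmosome and plaque genes 6 rose and 3 fell (median 0.17), with Dsg3, a desmosomal cadherin of basal cells, from 139.9 ± 24.5 to 385 ± 80.2 cpm and the plaque protein gene Ppl from 698 ± 162 to 283 ± 82.4 cpm. Hemidesmosome genes, which tie basal cells to the basement membrane, rose in 6 of 9 cases and fell in none (median 0.50), with Itga6 from 239 ± 32.3 to 541 ± 85.7 cpm. Among 15 regulators of epidermal keratin genes 9 rose and 1 fell (median 0.40), with Nfe2l2, an oxidative stress regulator, from 62.2 ± 6.13 to 171 ± 37.2 cpm, Stat3 from 103.8 ± 6.93 to 238 ± 34.4 cpm and the AP-1 subunit gene Fosl1 from 2.46 ± 0.595 to 10.3 ± 3.62 cpm. Proliferation genes rose in 5 of 12 cases and fell in none on day 8 (median 0.28), with Rrm2 from 59.3 ± 6.98 to 107.7 ± 22.2 cpm.

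Markers of other tissue in the sample were read beside the 12.2% of all genes that rose and the 11.2% that fell on day 8. Skeletal muscle markers fell in 10 of 10 cases (median -1.72) and summed to 4363 to 18671 cpm with ethanol and 2561 to 4691 cpm with MC903 on day 8. Adipocyte markers fell in 7 of 8 cases (median -1.41), from a sum of 606 to 908 cpm to 225 to 405 cpm, and fibroblast markers fell in 3 of 8 (median -0.19). Leukocyte markers rose in 8 of 12 cases and 1 fell (median 1.87), with the basophil gene Mcpt8 from 0.0807 ± 0.0326 to 13.3 ± 5.22 cpm, and their sum went from 69.95 to 119.99 cpm to 151 to 331 cpm. Of 8 sensory neuron markers 1 fell (median -0.80), a share near that of all genes. Since cpm are counts scaled to the whole library, such shifts move with every keratin level, and their part in the keratin values was not tested. The contrasts between keratin classes in 1 library do not use the rest of the counts.

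Genes whose level followed a member most closely over the 61 libraries were sought among 17626 genes by the correlation of log2(cpm + 0.5), given as a description. For Krt5 these were Irx3 (r = 0.84), Tpm3 (0.83), Ebp (0.82) and Ppm1g (0.81). Krt10 was followed by Hal (0.90), which encodes the histidine ammonia-lyase of the outer epidermis, Them5 (0.89), Pou2f3 (0.86) and Dkkl1 (0.85). Krt16 was followed by Gm11597 (0.99), which shares 25.2% of the 50-base windows of Krt16, and by Rbp2 (0.98), Rptn (0.98), an epidermal barrier protein gene, and Klk9 (0.97). The 61 libraries share treatment, days and depth, which enter each of these values.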

How the data were processed

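Skin of mice treated with MC903 or ethanol was measured by RNA-seq of poly(A)-selected RNA with single-end reads of 50 bases. The authors mapped the reads to mm10 with Bowtie2 and TopHat and deposited raw counts per Ensembl gene from HTSeq, a table for each library. Versions, the annotation release, the strand setting and the treatment of reads with several matches are not given in the sources used here. Gene symbols were taken from GENCODE M21 (45143 of 46078 genes matched). The 5 tally lines of each table (no feature 7.57% to 18.3%, ambiguous 1.77% to 3.61%) were left out of library sizes.

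Each comparison was fitted on its own libraries with edgeR 4.0.16 in R 4.3.3 (TMM scaling, glmQLFit and glmQLFTest, genes with at least 10 counts in all), with the cohort as a term in wild-type skin of day 8 and Benjamini-Hochberg adjustment over all genes tested. Differences of effects were interaction terms. The study's own test was DESeq, and DESeq2 1.42.0 was run as an alternative. Other alternatives were RLE size factors, library totals, scaling without keratin genes, other filters on low counts, 1 fit over all skin libraries, the replicate number as a block, each cohort alone, PBS-injected as the reference and leaving out each library. The fits were tested on simulated data with the same spread between replicates for every gene and no outlying library or cohort effect. That test therefore does not cover such features of the real libraries. Of 82 pairs of replicates none agreed within sampling noise (variance at least 11.6 times the sampling variance).

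The 10 members, the gene lists and the tests were chosen with earlier results of these data known. Named genes were the members, Crlf2 and Ltb4r1, from each list those with the smallest p on day 8, up to 4 (1 of them is not reported here), and the 4 genes most correlated with Krt5, Krt10 and Krt16. Correlations used log2(cpm + 0.5). Krt15 at 6 h and Gm5478 were named after their values were seen. Replicate numbers are not said to pair the samples, and the main fits did not use them. Counts limit the precision for Krt2 alone.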

Additional observations from a re-analysis of the deposited data

Results flagged for a closer look

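In 7 groups of 4 to 6 libraries, 12 quantities each (10 keratins and 2 ratios) were tested for a library far from the rest, and 12 of these 84 tests gave one. Chance gives about 1 in 20 per test. The tests share libraries and closely correlated genes, so no excess over chance can be read from this count. At 6 h, ethanol replicate 1 was highest in Krt17 at 1504 cpm and lowest in the log2 ratio of suprabasal to basal keratins at 0.36. MC903 replicate 4 of that day was highest in Krt77 at 1235 cpm. MC903 replicate 2 was highest in Krt6a at 364 cpm, Krt6b at 211 cpm and Krt16 at 145 cpm. In wild-type skin of day 8, 1 MC903 library of cohort A numbered replicate 1 held 1956 cpm of Krt10, and the other library with that number had a log2 ratio of stress to suprabasal keratins of 3.94. With aGr1, MC903 replicate 4 was lowest in Krt5 at 1491 cpm, Krt6a at 5671 cpm and Krt16 at 3206 cpm, and MC903 replicate 3 was highest in Krt2 at 1.28 cpm.

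Differences between effects of MC903 passed the test in 16 cases (log2). With aGr1 against no injection they were 1.46 for Krt6b and 1.35 for Krt16, and in BLT1.KO against wild-type -1.22 for Krt1, 1.06 for Krt16 and 1.62 for Krt17. From 6 h to day 5 they were 3.43 for Krt14, -2.22 for Krt10, -3.43 for Krt2, -5.23 for Krt77, 6.16 for Krt6a, 7.15 for Krt6b, 5.32 for Krt16 and 2.41 for Krt17. From day 5 to day 8 they were -1.40 for Krt6a, -1.75 for Krt6b and -1.73 for Krt17.

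Wild-type libraries of day 12, which enter no comparison, had keratin levels that went against their tissue labels and in some cases their treatment labels. Levels in this paragraph are cpm before TMM scaling. Of 9 labelled trigeminal ganglion, 6 had a summed level of the 10 keratins of 58111, 54302, 51979, 14073 and 11382 cpm (MC903 replicates 1 to 5) and 14720 cpm (ethanol replicate 1), all above the lowest of the 61 skin libraries, 5042 cpm. A seventh, ethanol replicate 2, held 4473 cpm of keratins and 1534 cpm of sensory neuron markers. In the other 56 trigeminal ganglion libraries the median was 8.62 cpm and the highest value 394 cpm. Of 9 libraries labelled skin on that day, 6 had keratin sums of 5.88 to 7.91 cpm and sensory neuron sums of 3374 to 4103 cpm. Skin-labelled ethanol replicates 2 and 5 held 8549 and 8508 cpm of Krt6a and 31.4 and 236 cpm of Krt77, as in MC903-treated skin. Skin-labelled MC903 replicate 1 held 244 and 3861 cpm. Ganglion-labelled MC903 replicates 4 and 5 held 176 and 252 cpm of Krt6a and 3774 and 2343 cpm of Krt77. Ganglion-labelled MC903 replicates 1 to 3 and ethanol replicate 1 had the pattern of their treatment label.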

How the results depend on the processing

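The number of members called held within 1.5 times of its main value under every alternative run on day 5, on day 8 of wild-type, aGr1, TSLPR.KO and BLT1.KO mice and on day 12, apart from the blocks named below. At 6 h it was 1, and it was 0 with library totals, 0 in 1 fit over all skin libraries, 2 with scaling without keratin genes, 2 with filterByExpr, 4 with DESeq2 and 0 to 2 without 1 library. On day 2 it was 0, with 3 by DESeq2, 4 in 1 fit over all skin libraries and 0 to 3 without 1 library. Without 1 library it was 2 to 7 with PBS. For differences in effect, aGr1 gave 0 in 1 fit over all skin libraries, 0 with PBS-injected mice as reference and 1 to 4 without 1 library, BLT1.KO 5 by DESeq2, 1 in 1 fit over all skin libraries and 1 to 4 without 1 library, and day 8 against day 5 1 in 1 fit over all skin libraries and 0 to 4 without 1 library. Of 2760 member values, 1 reversed: Krt6b at 6 h, log2 -0.66 without MC903 replicate 2. Per kilobase, the log2 contrast of suprabasal to basal keratins was -4.42 on day 5, -4.57 with aGr1 and -4.95 in BLT1.KO. In TSLPR.KO on day 8 the contrasts without 1 library ran from 2.53 to 4.45 and from -2.71 to -1.62. On day 2, with PBS and in TSLPR.KO on day 8 such omissions leave 1 library in a group, which is assumed to vary like the others.

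Replicate numbers did not pair the samples (correlations of -0.319 to 0.289 on day 5 and -0.184 to 0.544 with aGr1). With the replicate block 0 members were called at 6 h, 5 on day 2, 8 on day 8, 5 with PBS and 4 in TSLPR.KO on day 12.

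Calls over all genes moved by over 1.5 times as follows. At 6 h 3213 became 986 with library totals, 602 in 1 fit and 1795 with the block. On day 8 6125 became 2258 in cohort B, with PBS 973 became 2118 by DESeq2, 2031 in 1 fit and 640 with the block, and in TSLPR.KO 593 became 1313 by DESeq2, 1401 without a filter, 1043 in 1 fit and 1272 with the block. On day 12 2550 became 4009 by DESeq2 and 548 with the block. Differences in effect went from 1268 to 2515 by DESeq2 and 62 with PBS for aGr1, from 48 to 548 by DESeq2, 100 without a filter, 149 in 1 fit and 5 with cohort B for TSLPR.KO, from 1924 to 3157 by DESeq2 and 1010 with cohort B for BLT1.KO, from 2844 to 1506 with library totals and 1734 in 1 fit for day 5 against 6 h, and from 441 to 1533 by DESeq2 for day 8 against day 5. With library totals the split of higher and lower calls went from 3827 and 4415 to 5527 and 2216 with aGr1 and from 1375 and 1175 to 1296 and 676 on day 12. For differences in effect it went from 334 and 934 to 1138 and 472 for aGr1 and from 192 and 249 to 146 and 452 for day 8 against day 5. The median of all genes moved from -0.02 to 0.34 with aGr1, 0.02 to 0.36 for its difference, -0.02 to 0.16 on day 12 and -0.04 to 0.20 for day 12 against day 8. Depth limits Krt2 alone. The causes were not tested.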
